A study of Rattus norvegicus with 12 samples.

Results

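The 10 genes described here encode secreted proteins that draw or sustain neutrophils and monocytes. They are the CXC chemokines Cxcl1, Cxcl2, Cxcl3 and Cxcl6, the CC chemokines Ccl2, Ccl7, Ccl3, Ccl4 and Ccl20, and Csf3, which encodes granulocyte colony-stimulating factor. They were chosen by gene symbol, and all 10 were found among the 40154 genes of the count table. Csf3 is a growth factor of the neutrophil lineage and not a chemokine, and Ccl20 is known mainly as an attractant of lymphocytes and dendritic cells. The samples were urinary bladder tissue of female Wistar rats, an outbred laboratory strain, aged 10 to 12 weeks. In the injured rats the cord had been transected fully at T10 (T9-T10 in the series text), which interrupts the control of the bladder by the brain. Bladder RNA came from uninjured rats, labelled normal controls, and from injured rats at 7, 14 and 28 days, with 3 libraries in each of the 4 groups. The labels name no sham operation, so surgery and cord injury cannot be told apart.

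Chemokines are small secreted proteins that bind G protein-coupled receptors on leukocytes and guide them out of the blood and through tissue. The CXC chemokines of this set act on neutrophils through Cxcr2, whereas Ccl2 and Ccl7 act on monocytes through Ccr2, and Ccl3 and Ccl4 act on monocytes, macrophages and T cells. Many of these genes are induced by tumour necrosis factor, interleukin-1 and interleukin-17 through the transcription factor NF-kappaB, in epithelium, fibroblasts, smooth muscle and leukocytes alike.

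The genes lie in clusters. On rn6, the build named in the submitters' notes, Cxcl2 (chromosome 14, 18731346 to 18733391), Cxcl1 (18743678 to 18745457), Cxcl3 (18820168 to 18839659) and Cxcl6 (18860201 to 18920839) follow each other on the minus strand of chromosome 14. On chromosome 10, Ccl2 (69412065 to 69413863) and Ccl7 (69423083 to 69424933) are neighbours on the plus strand. Ccl3 (70869516 to 70871066) and Ccl4 (70870926 to 70886357) lie further along on opposite strands and overlap by 141 bases. Csf3 is at 86616785 to 86619160 on chromosome 10 and Ccl20 at 88918359 to 88921017 on chromosome 9. No source used here says if reads were counted by strand, so reads in the overlap of Ccl3 and Ccl4 are uncertain. The uncharacterised locus LOC103692658 lies over Cxcl6 on the opposite strand with 67 counts, against 3233 counts for Cxcl6.

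Promoter sequence was given for 5 of the 10 genes, and it is shown because 4 of these 5 hold a match to a motif that NF-kappaB binds. Each line holds the 250 bases before the transcription start, 5′ to 3′ on the gene's strand, from RefSeq on the GRCr8 build, and capitals mark matches to GGGNNTTTCC, a kappaB motif, on either strand.
Cxcl1 (chr14:17479322-17479571, minus strand): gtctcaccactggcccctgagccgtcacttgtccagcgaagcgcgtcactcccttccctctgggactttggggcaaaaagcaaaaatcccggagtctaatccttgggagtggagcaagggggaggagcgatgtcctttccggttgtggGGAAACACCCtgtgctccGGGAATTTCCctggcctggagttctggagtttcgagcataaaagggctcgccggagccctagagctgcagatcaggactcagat
Cxcl2 (chr14:17467256-17467505, minus strand): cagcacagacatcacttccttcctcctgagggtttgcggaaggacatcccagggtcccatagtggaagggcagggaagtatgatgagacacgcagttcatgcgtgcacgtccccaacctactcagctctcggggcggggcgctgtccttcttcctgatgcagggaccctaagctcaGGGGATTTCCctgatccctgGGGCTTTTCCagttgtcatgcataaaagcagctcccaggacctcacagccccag
Cxcl6 (chr14:17596418-17596667, minus strand): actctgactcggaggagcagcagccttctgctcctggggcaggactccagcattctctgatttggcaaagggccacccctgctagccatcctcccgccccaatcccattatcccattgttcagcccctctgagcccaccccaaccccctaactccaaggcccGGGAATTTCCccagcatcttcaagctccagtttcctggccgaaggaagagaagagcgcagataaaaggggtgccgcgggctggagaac
Ccl20 (chr9:91836909-91837158, plus strand): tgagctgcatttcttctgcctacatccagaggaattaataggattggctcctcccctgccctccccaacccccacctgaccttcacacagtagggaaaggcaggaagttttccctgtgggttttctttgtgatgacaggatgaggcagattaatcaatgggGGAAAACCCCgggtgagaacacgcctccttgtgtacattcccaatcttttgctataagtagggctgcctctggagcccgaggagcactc
Ccl7 (chr10:67513845-67514094, plus strand): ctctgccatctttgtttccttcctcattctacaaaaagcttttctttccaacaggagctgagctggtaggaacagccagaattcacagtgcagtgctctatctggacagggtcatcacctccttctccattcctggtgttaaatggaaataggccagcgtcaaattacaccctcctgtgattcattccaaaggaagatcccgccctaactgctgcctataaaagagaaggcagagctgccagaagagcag
Cxcl1 had a match 84 to 75 bases before its start and another, on the opposite strand, 102 to 93 bases before it. Cxcl2 had matches at 74 to 65 and 54 to 45 bases, Cxcl6 at 88 to 79 bases, and Ccl20 at 89 to 80 bases on the opposite strand. Cxcl1 and Cxcl6 carried the same 10 letters, GGGAATTTCC, at nearly the same distance. Ccl7 had no kappaB match in this window. At 73 to 67 bases it held TGATTCA, a match to TGANTCA, a loose form of the AP-1 motif that allows any middle base. The kappaB motif was present in 435 of 33469 rat promoters of the same length (1.3%) and TGANTCA in 6.34%. A match in letters is a description and not evidence of binding. Promoters of Cxcl3, Ccl2, Ccl3, Ccl4 and Csf3 were not analysed here.

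Depth was even, at 26.3 to 30.7 M counts per library. Levels of 1 gene between samples are given as CPM, which are counts relative to the TMM-normalized library total. Levels of different genes are compared as the authors' TPM, which also allow for gene length. The threshold for calling a gene was an adjusted p under 0.05 in the quasi-likelihood test of edgeR over the 17687 genes that passed a filter on low counts. All adjusted p-values below are from that test unless DESeq2 is named, and changes are log2 fold changes ± standard error. Nothing in the labels ties a library to a named rat, so p-values measure the spread between these libraries. Bladder markers were high in every library: 8 urothelial genes summed to 4557 to 7484 CPM and 5 smooth muscle genes to 7770 to 28469 CPM. The smooth muscle sum was lower at day 28, at 7770 to 17207 CPM, than in control, at 18958 to 21539 CPM. Of the day-14 libraries, replicate 3 stood apart: 12 neutrophil markers summed to 225 CPM in it, against 43.8 CPM in replicate 1 and 18.1 CPM in replicate 2. In day-7 replicate 3 haemoglobin made up 2.90% of counts, against 0.036% to 0.371% in the other 11 libraries. All 5 erythroid markers rose at day 7 against control, where 15.6% of all tested genes were called higher. They summed to 411, 864 and 8485 CPM at day 7 and to 152 to 731 CPM in control. The part of blood in the day-7 values was not tested. In whole tissue, more cells of a type and more RNA per cell cannot be told apart.

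Against control, 3 of the 10 genes rose at day 7, none was called at day 14, and 9 rose at day 28. The day-7 genes were Ccl2, Ccl7 and Cxcl1, with 15.6% of all tested genes called higher at that day. At day 14, 9 genes had an unadjusted p under 0.05 and DESeq2 called 5, with 1.45% of all tested genes called higher by edgeR. At day 28, where 11% of tested genes were called higher, Ccl7 alone was not called (DESeq2 called all 10). These counts were not stable: leaving out 1 library gave 1 to 3 called at day 7, 0 to 3 at day 14 and 3 to 9 at day 28. The median log2 fold change of the 10 genes was 2.67 at day 7, 3.22 at day 14 and 4.52 at day 28 (Ccl20 ranks lowest at day 7, where no fold is given for it), while the median over all tested genes was -0.01, 0.00 and 0.00. Every injured library lay above every control library for 7 genes at day 7, for 5 at day 14 and for all 10 at day 28. This also held for 23.6%, 11.5% and 20.9% of all tested genes. Outside day 28, Csf3 reached 10 counts in 2 libraries and Ccl20 in 1, so both passed the filter only through the group in which they were high, and these counts are a description.

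**Figure D1:**
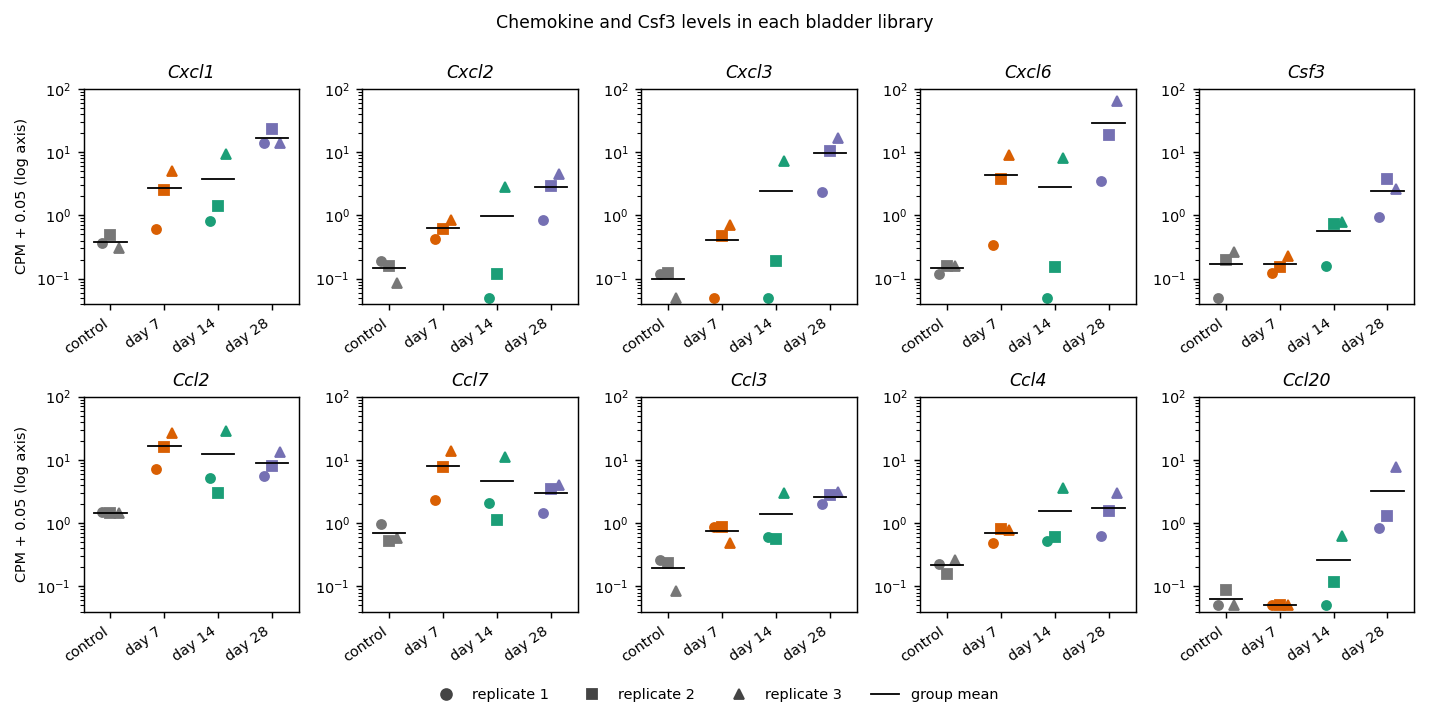
CPM (plus 0.05, log axis) of the 10 genes in each of the 12 libraries, by group; symbols give the replicate number and bars the group mean. Ccl2 and Ccl7 have their highest means at day 7 and the other 8 genes at day 28, and day-14 replicate 3 lies above the other day-14 libraries in every panel.

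**Figure D2:**
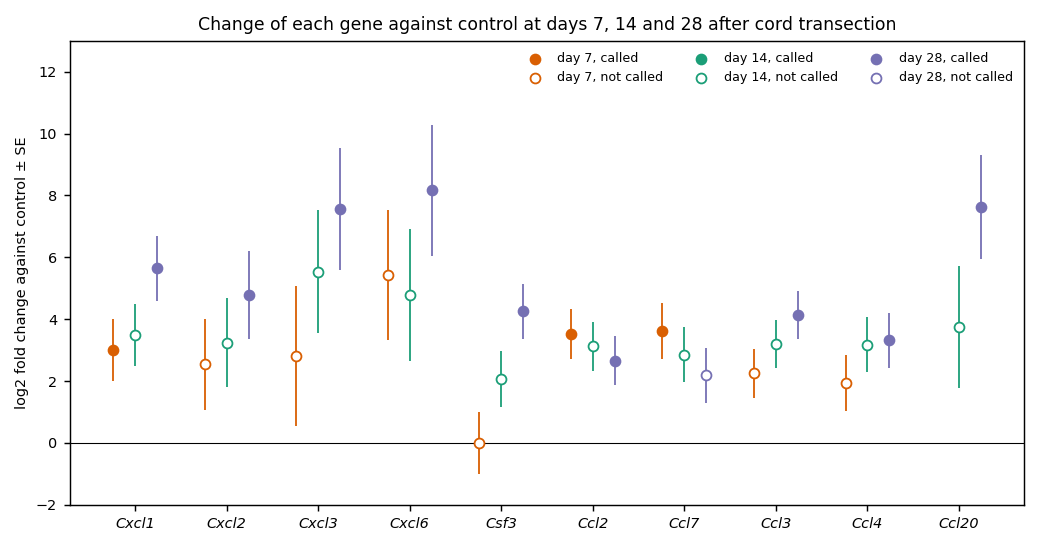
Log2 fold change of each gene against control at days 7, 14 and 28, with bars of 1 standard error; filled points have an adjusted p under 0.05. No point is drawn for Ccl20 at day 7, where day 7 held 0 counts and control 1. The 9 filled day-28 points run from 2.65 for Ccl2 to 8.16 for Cxcl6.

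Cxcl1 encodes the main neutrophil attractant of rodents, known in the rat as cytokine-induced neutrophil chemoattractant. It was measured at 0.313, 0.437 and 0.25 CPM in control, at 0.550, 2.47 and 5.03 CPM at day 7, at 0.764, 1.34 and 9.17 CPM at day 14, and at 13.7, 23.0 and 13.8 CPM at day 28. All 9 injured libraries lay above the 3 controls, and the day-28 libraries lay above all others. Cxcl1 rose by 2.99 ± 1.00 at day 7 (adjusted p = 0.0467) and by 5.64 ± 1.04 at day 28 (adjusted p = 0.00375), with 3.48 ± 1.00 at day 14 (adjusted p = 0.0947). The day-28 rise of Cxcl1 was called in each of 11 alternative fits, with adjusted p at most 0.0237. The day-7 call was lost without any 1 of the control libraries, without day-7 replicate 2 and without day-7 replicate 3, the last of which left 2.16 (adjusted p = 0.176).

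Cxcl2 and Cxcl3, close relatives of Cxcl1 that act on the same receptor, were near the limit of detection in control. Cxcl2 had 4, 3 and 1 counts in control, 10, 16 and 22 at day 7, 0, 2 and 77 at day 14, and 24, 87 and 140 at day 28. Cxcl3 had 2, 2 and 0 counts in control, 0, 12 and 18 at day 7, 0, 4 and 200 at day 14, and 69, 312 and 520 at day 28. Day-28 libraries lay above all control and day-7 libraries for both genes, while the day-14 libraries ranged from 0 to within the day-28 range. Against control at day 28, Cxcl2 rose by 4.78 ± 1.43 (adjusted p = 0.0378) and Cxcl3 by 7.56 ± 1.97 (adjusted p = 0.0211). As ratios of summed counts scaled to library size these were 29.0-fold (95% interval 14.5 to 67.8) and 208-fold (80.9 to 765), where the exact intervals cover counting error only. At day 7, Cxcl2 stood 2.54 ± 1.47 above control (adjusted p = 0.227) and Cxcl3 2.80 ± 2.26 (adjusted p = 0.390), and neither was called. Both day-28 calls were lost without any 1 control library (adjusted p 0.0980 to 0.131 for Cxcl2 and 0.0733 to 0.0839 for Cxcl3) and without day-28 replicate 3 (0.0962 and 0.0506). That of Cxcl2 was also lost without day-28 replicate 2 (0.0740).

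Cxcl6, listed by RefSeq with Cxcl5 as a synonym, encodes an attractant of neutrophils known in rodents as a product of epithelium and fibroblasts. It had the largest day-28 fold change of the 10 genes and the largest standard error. It had 2, 3 and 3 counts in control, 8, 105 and 247 at day 7, 0, 3 and 229 at day 14, and 102, 566 and 1965 at day 28. Day-7 libraries lay above control but spanned a wide range, and the 2 lower day-14 libraries were at control levels. Cxcl6 rose by 8.16 ± 2.11 at day 28 (adjusted p = 0.0202), a 304-fold ratio of summed counts (154 to 705). At day 7 the difference from control was 5.43 ± 2.1 (adjusted p = 0.0784) and was not called, while DESeq2 called it (adjusted p = 0.0128). The day-28 call was lost without any 1 control library (adjusted p 0.0762 to 0.0775) and without day-28 replicate 3 (6.81, adjusted p = 0.0550).

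Transcript counts showed the day-28 rise of Cxcl6 and Cxcl3 over more than 1 annotated isoform, although isoforms share reads and are not independent. For Cxcl6, the 392-base transcript held 621 counts at day 28 and 1 in control, and the 2742-base transcript held 2599 at day 28 and 8 in control. The other 3 annotated Cxcl6 transcripts held 880 to 885 counts at day 28 and 1 each in control. For Cxcl3, the 674-base transcript had 350 counts at day 28 and 3 in control, and the 1202-base transcript had 901 at day 28 and 4 in control. The annotated span of Cxcl6, 60639 bases for 3322 bases of exon, is far longer than that of the other genes.

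Csf3, whose product drives the formation and release of neutrophils, was at low counts in control and at day 7. It had 0, 4 and 6 counts in control, 2, 3 and 5 at day 7, 3, 20 and 21 at day 14, and 27, 110 and 79 at day 28. Day-7 libraries overlapped control fully, and day-28 libraries lay above all 9 others. Csf3 rose at day 28 both against control (4.26 ± 0.89, adjusted p = 0.00724) and against day 7 (4.26 ± 0.89, adjusted p = 0.00783). At day 7 the log2 difference from control was 0.00 ± 1.00 (adjusted p = 0.999), and at day 14 it was 2.07 ± 0.91 (adjusted p = 0.266). Csf3 passed the filter on low counts only through its day-28 libraries, where it is high, so the counts above are the description to go by.

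Ccl2 encodes the principal attractant of inflammatory monocytes, and Ccl7 encodes a second ligand of the same receptor. Ccl2 was measured at 1.46, 1.38 and 1.39 CPM in control, at 7.19, 15.8 and 26.3 CPM at day 7, at 5.17, 2.92 and 28.9 CPM at day 14, and at 5.54, 7.89 and 13.3 CPM at day 28. Ccl7 was measured at 0.905, 0.474 and 0.536 CPM in control, at 2.24, 7.79 and 13.8 CPM at day 7, at 2.0, 1.07 and 10.9 CPM at day 14, and at 1.40, 3.40 and 3.98 CPM at day 28. Every injured library lay above every control library for both genes, and the 3 injured groups overlapped one another. At day 7, Ccl2 rose by 3.53 ± 0.81 (adjusted p = 0.00834) and Ccl7 by 3.62 ± 0.91 (adjusted p = 0.0137). At day 28, Ccl2 rose by 2.65 ± 0.79 (adjusted p = 0.0378) and Ccl7 stood at 2.19 ± 0.89 (adjusted p = 0.115; DESeq2 adjusted p = 0.0256). The values against day 7 at day 28 were -0.88 ± 0.71 for Ccl2 (adjusted p = 0.431) and -1.44 ± 0.81 for Ccl7 (adjusted p = 0.247), so no difference between these days was shown.

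The day-7 call of Ccl2 held in all 11 alternative fits (adjusted p at most 0.0367). That of Ccl7 was lost without control replicate 2 or 3 (0.0576 and 0.0538). The day-28 call of Ccl2 was lost without any 1 control library (adjusted p 0.102 to 0.112), without day-28 replicate 2 (0.0674) and without day-28 replicate 3 (0.111). Over the 12 libraries the profiles of Ccl2 and Ccl7 were the closest pair among the 10 genes, with a root mean square difference of 0.330 in centred log2(CPM + 0.5).

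Ccl3 and Ccl4, the macrophage inflammatory proteins, were low in control and had their highest mean levels at day 28. Ccl3 was measured at 0.209, 0.182 and 0.0357 CPM in control, at 0.807, 0.834 and 0.434 CPM at day 7, at 0.546, 0.516 and 2.97 CPM at day 14, and at 1.93, 2.70 and 3.02 CPM at day 28. Ccl4 was measured at 0.174, 0.109 and 0.214 CPM in control, at 0.440, 0.765 and 0.724 CPM at day 7, at 0.473, 0.550 and 3.58 CPM at day 14, and at 0.567, 1.53 and 2.99 CPM at day 28. All injured libraries lay above all controls for both genes, and Ccl3 at day 28 also lay above all of day 7. At day 28, Ccl3 rose by 4.12 ± 0.78 (adjusted p = 0.00429) and Ccl4 by 3.32 ± 0.89 (adjusted p = 0.0238). At day 7 they stood at 2.25 ± 0.79 (adjusted p = 0.0561) and 1.93 ± 0.91 (adjusted p = 0.140), and neither was called, although fitting only the groups compared called both (0.0270 and 0.0201) and DESeq2 called Ccl3 (0.0173). The call of Ccl3 held in all 11 alternative fits (adjusted p at most 0.0225), whereas that of Ccl4 was lost without any 1 control library (0.0689 to 0.0898) and without day-28 replicate 3 (0.0838).

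Ccl20, the only chemokine ligand of Ccr6, was at or near 0 in control and at day 7. It had 0, 1 and 0 counts in control, 0, 0 and 0 at day 7, 0, 2 and 16 at day 14, and 24, 38 and 235 at day 28. All 3 day-28 libraries lay above the other 9. Ccl20 rose at day 28 against control by 7.62 ± 1.67 (adjusted p = 0.0126), a 274-fold ratio of summed counts whose counting interval runs from 48.8 to 10866. Against day 7 it was at least 90.9-fold higher at day 28, with the floor set at 3 counts over the day-7 group (fitted log2 value 9.52 ± 1.99, adjusted p = 0.0107). No fold is given at day 7, where the group held 0 counts against 1 in control. At day 14 the ratio to control was 17.9 with a counting interval of 2.82 to 744 (adjusted p = 0.371), and 16 of the 18 counts were in replicate 3. The call against control was lost without any 1 control library (adjusted p 0.0541 to 0.0602). Like Csf3, Ccl20 passed the filter on low counts only through day 28, and its counts are the description to go by.

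Because TPM allow for gene length, they give the order of levels within a group. In control, Ccl2 was highest at 3.70 TPM ± 0.163 (SD, n = 3), followed by Ccl7 at 1.62 TPM ± 0.616 and Cxcl1 at 0.731 TPM ± 0.210, and the other 7 genes averaged under 0.5 TPM with ranges that overlap their neighbours. At day 7 the first 3 places were the same, with mean levels of 38.3 TPM for Ccl2, 17.8 TPM for Ccl7 and 5.17 TPM for Cxcl1, although neighbouring ranges overlapped. At day 28, Cxcl1 averaged 37.6 TPM ± 12.3 and Ccl2 23.7 TPM ± 10.4, with overlapping ranges. Cxcl6 followed at 17.7 TPM ± 19.2 and Cxcl3 at 12.8 TPM ± 9.39, whereas Ccl7 averaged 7.54 TPM ± 3.47. Every neighbouring pair in the day-28 order overlapped.

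The balance of the CXC and CC genes differed by day. Cxcl1, Cxcl2, Cxcl3 and Cxcl6 together summed to 1.09, 1.32 and 0.669 TPM in control, to 1.98, 8.73 and 15.8 TPM at day 7, to 1.76, 3.33 and 40.0 TPM at day 14, and to 37.1, 83.0 and 99.7 TPM at day 28. Ccl2, Ccl7, Ccl3 and Ccl4 together summed to 7.26, 5.60 and 5.59 TPM in control, to 26.7, 61.9 and 89.5 TPM at day 7, to 22.4, 13.3 and 123 TPM at day 14, and to 25.2, 41.8 and 61.5 TPM at day 28. The CXC sum was 1.47, 1.99 and 1.62 times the CC sum in the day-28 libraries, and 0.0741 to 0.325 times the CC sum in the other 9 libraries. The ranges do not overlap, and the ratio is given as a description, with no test.

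**Figure D3:**
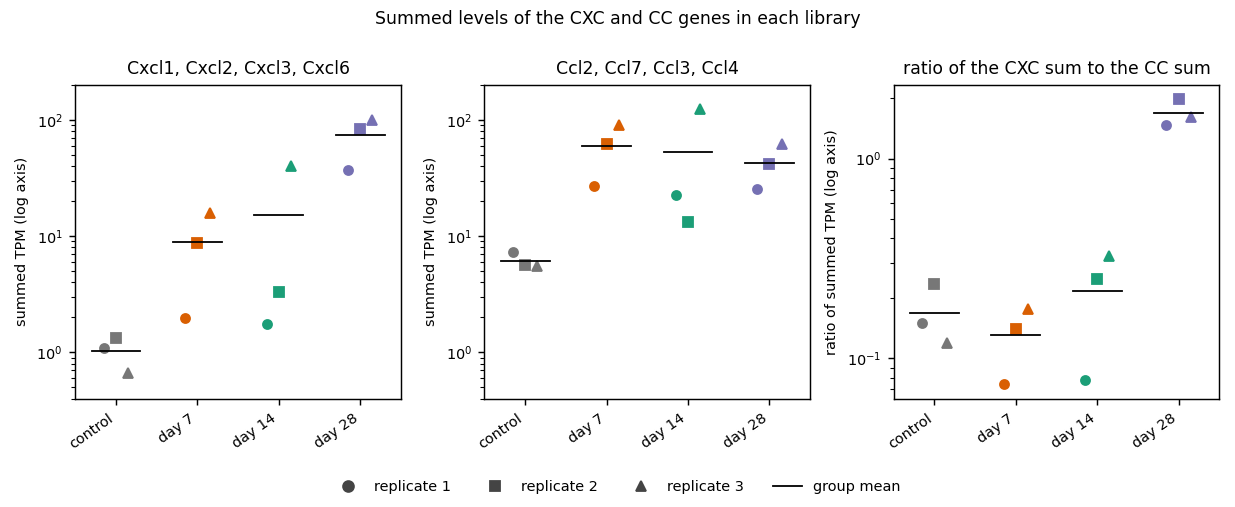
Summed TPM (log axis) of the 4 CXC genes, of 4 CC genes, and the ratio of these sums in each library; bars are group means and symbols the replicate numbers. The ratio lies between 1.47 and 1.99 in the 3 day-28 libraries and at or under 0.325 in all others.

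Day-14 values rested on replicate 3, which was the highest day-14 library for all 10 genes. With all 3 libraries the log2 differences from control ran from 2.07 for Csf3 to 5.54 for Cxcl3. Without replicate 3 they were 1.52 for Ccl2, 1.26 for Ccl7, 1.87 for Ccl3, 1.61 for Ccl4, 1.66 for Cxcl1, 1.72 for Csf3, 1.29 for Ccl20 and 0.53 for Cxcl3, with Cxcl2 at -1.32 and Cxcl6 at -0.79. None was called with or without it (edgeR adjusted p at least 0.0544 with it and 0.182 without it; DESeq2 called 5 with it). The raised neutrophil markers of that library, given above, went with these values, and their part in the result was not tested.

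Between injured groups, 2 of the 10 genes were called at day 28 against day 7, both higher, where 7.89% of tested genes were called higher. They were Ccl20 and Csf3, the 2 genes that passed the filter only through day 28, so nothing is read from this count. Cxcl1 (2.65 ± 0.85, adjusted p = 0.0504), Cxcl3 (4.76 ± 1.56, adjusted p = 0.0540) and Ccl3 (1.87 ± 0.66, adjusted p = 0.0699) just missed the threshold, although each day-28 library lay above each day-7 library. DESeq2 called 4. None of the 10 was called between day 14 and day 7 by edgeR (2 at an unadjusted p under 0.05, and 0 by DESeq2), where 19.5% of tested genes were called. None was called between day 28 and day 14 (4 at an unadjusted p under 0.05, and 0 by DESeq2), where 4.34% of tested genes were called. Without day-14 replicate 3, 5 of the 10 were higher at day 28 than at day 14: Cxcl1 (3.97, adjusted p = 0.0189), Cxcl2 (6.10, 0.0141), Cxcl3 (7.02, 0.0246), Cxcl6 (8.94, 0.0332) and Ccl3 (2.24, 0.0396). Without it, 3 were lower at day 14 than at day 7: Ccl2 (-2.01, adjusted p = 0.0276), Ccl7 (-2.36, 0.0475) and Cxcl2 (-3.86, 0.0379).

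Receptors for these ligands were examined as a list of 9, of which 7 were tested. Ccr2 was not analysed here, and Cxcr1 had 11 counts over all libraries and was below the filter. Against control, 3 receptors rose at day 7, 1 at day 14 and 2 at day 28, and none fell. Among all tested genes, 15.6%, 1.45% and 11% were called higher at these days. The median log2 fold change of the 7 was 1.03 at day 7, 0.83 at day 14 and 2.56 at day 28. Csf3r, the receptor of the Csf3 product and itself a neutrophil marker, was measured at 0.696, 0.510 and 0.464 CPM in control, at 7.88, 14.2 and 18.5 CPM at day 7, at 4.99, 3.64 and 64.7 CPM at day 14, and at 9.31, 24.9 and 30.9 CPM at day 28. All injured libraries were above control, and Csf3r rose at day 7 (4.59 ± 1.11, adjusted p = 0.0112), at day 14 (5.44 ± 1.13, adjusted p = 0.0353) and at day 28 (5.27 ± 1.13, adjusted p = 0.00805). The day-14 call was lost without any 1 control library (0.126 to 0.139) and when only these 2 groups were fitted (0.0572), and without day-14 replicate 3 the value was 2.95 (adjusted p = 0.0429). Cxcr2, the receptor of the CXC genes, was measured at 0.557, 0.838 and 0.679 CPM in control, at 1.94, 6.36 and 4.67 CPM at day 7, at 0.619, 1.17 and 32.7 CPM at day 14, and at 1.97, 9.86 and 14.1 CPM at day 28. It was not called at any day (adjusted p = 0.156, 0.134 and 0.0780 at days 7, 14 and 28), although all day-7 and day-28 libraries lay above control. DESeq2 called it at day 14 (adjusted p = 0.0202) and day 28 (0.0183), and fitting only the groups compared called it at day 7 (0.00455) and day 28 (0.0102). Without day-14 replicate 3 the day-14 value was 0.38 (adjusted p = 0.907).

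Ccr6, the receptor of the Ccl20 product, was measured at 0.661, 0.984 and 0.893 CPM in control, at 2.05, 1.46 and 0.941 CPM at day 7, at 1.46, 1.51 and 1.56 CPM at day 14, and at 6.47, 9.82 and 16.6 CPM at day 28. The day-28 libraries stood above all 9 others, as they did for Ccl20. Ccr6 rose at day 28 against control (3.69 ± 0.39, adjusted p = 0.000168), against day 7 (2.88 ± 0.37, adjusted p = 0.000754) and against day 14 (2.86 ± 0.37, adjusted p = 0.00327). Of 7 tested T and NK cell markers, 5 rose at day 28 against control, where 11% of all tested genes were called higher. Cd3d, counted among the 5, had 198 counts over all libraries. Its day-28 log2 values were 5.15 against control, 3.63 against day 7 and 3.43 against day 14. Its passing of the filter on low counts thus depended on day 28, where it was high, and its call is no independent support. The 7 markers summed to 212 to 290 CPM at day 28 and 75.2 to 83.1 CPM in control. Cd4 held 40084 counts over all libraries, and Cd8a, the next highest of the 7, held 2404. The sum is thus mostly a level of Cd4 and not of the list as a whole. The 4 genes of a B cell list, all below the filter, summed to 0.867, 1.96 and 9.95 CPM at day 28. In the other groups they summed to at most 0.626 CPM. The part of T, NK or B cells in the Ccr6 result was not tested.

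Ccr3, known on eosinophils, rose at day 7 (2.79 ± 0.91, adjusted p = 0.0416), as did Ackr1, a venular receptor that binds CC and CXC ligands without signalling (1.03 ± 0.34, adjusted p = 0.0459). Both calls were lost without any 1 control library (0.0842 to 0.123 for Ccr3 and 0.0656 to 0.146 for Ackr1). The call of Ccr3 was also lost without day-7 replicate 1 or 2 (0.10 and 0.0940), and that of Ackr1 without day-7 replicate 2 or 3 (0.0967 and 0.157). Ackr2, which takes up and degrades CC chemokines, stood at -1.07 ± 0.39 at day 7 (adjusted p = 0.0624) and was higher at day 14 than at day 7 (1.53 ± 0.39, adjusted p = 0.0193), a call lost without day-7 replicate 2 or 3 (0.0739 and 0.0611) and without day-14 replicate 2 (0.0547). The day-7 value of Ackr2 was called by DESeq2 (0.0194), with no filter (0.0475) and on leaving out replicate 1 of control (0.0455) or of day 7 (0.00853). Ccr3 was not called at days 14 and 28 by edgeR (0.128 and 0.0717), while DESeq2 called it at both (0.0103 and 0.00940), and at day 28 so did fitting only the groups compared (0.0157) and the replicate block (0.0414). Ccr1 was not called at any day, with log2 values of 0.91, 0.56 and 0.55, although fitting only the groups compared called it at day 7 (adjusted p = 0.00895).

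**Figure D4:**
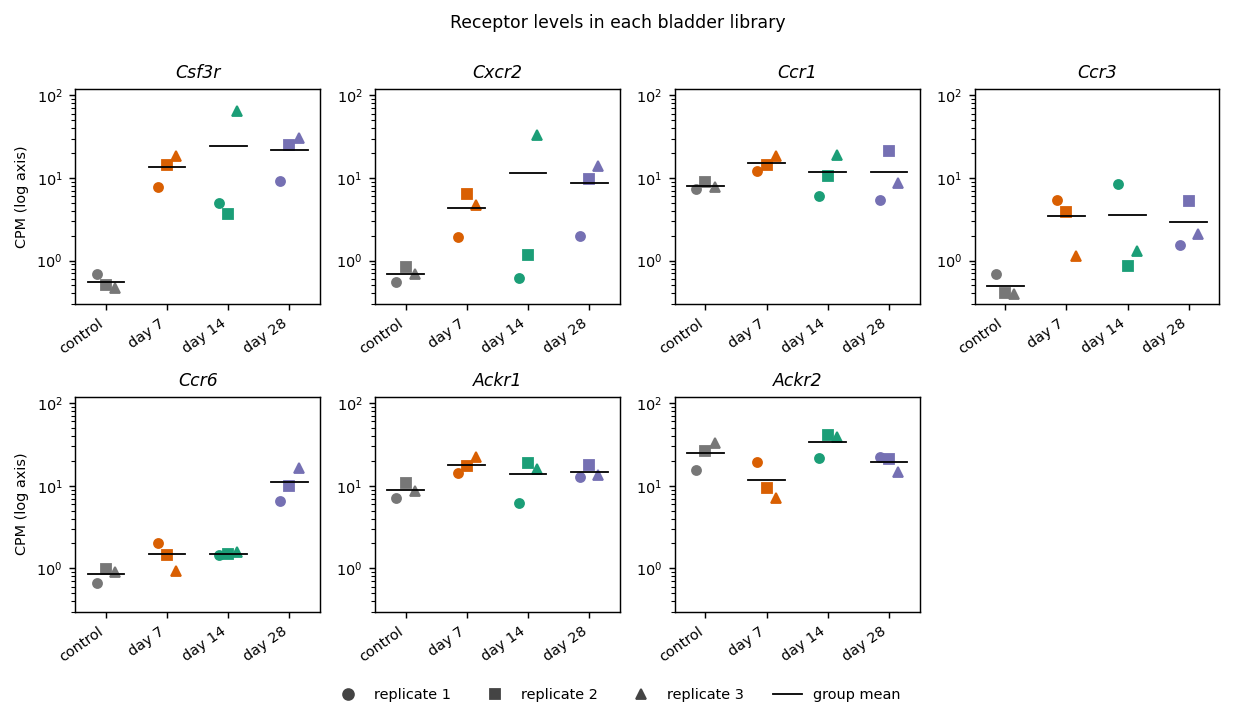
CPM (log axis) of 7 receptor genes in each library, by group; bars are group means and symbols the replicate numbers. Csf3r lies above control in every injured library, while Ccr6 stands apart at day 28, at 6.47 to 16.6 CPM.

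A list of 18 genes for inducing cytokines and for NF-kappaB signalling had 4 members higher at day 7, 0 called at day 14 and 12 higher at day 28, with none lower. Among all tested genes, 15.6%, 1.45% and 11% were called higher at these days. The list's median log2 fold change was 0.69, 0.66 and 1.44 at days 7, 14 and 28. At day 7 the rises were Il17ra, a receptor chain for interleukin-17 (0.88 ± 0.17, adjusted p = 0.00385), Nfkb2, an NF-kappaB subunit (0.68 ± 0.19, adjusted p = 0.0230), Cebpb, a transcription factor of myeloid and inflammatory genes (0.87 ± 0.28, adjusted p = 0.0375), and Il6 (7.98 ± 2.27, adjusted p = 0.0237). Il6 is uncertain, because it had 0, 1 and 0 counts in control and 2, 50 and 291 at day 7, most of them in replicate 3. Kmt2c overlaps Il6 on the same strand with 76788 counts, against 472 for Il6, and the effect of this overlap was not tested. Of these, the calls of Nfkb2, Cebpb and Il6 were lost without any 1 control library (0.0581 to 0.0778, 0.0850 to 0.102 and 0.0818 to 0.0846) and without day-7 replicate 3 (0.0618, 0.187 and 0.0900), and those of Nfkb2 and Cebpb also without day-7 replicate 2 (0.0621 and 0.0675). Il1b, interleukin-1 beta, was measured at 1.53, 1.57 and 2.64 CPM in control, at 5.57, 6.78 and 8.36 CPM at day 7, at 4.37, 3.78 and 24.6 CPM at day 14, and at 14.2, 48.4 and 67.6 CPM at day 28. It rose at day 28 against control (4.50 ± 0.79, adjusted p = 0.00292) and against day 7 (2.65 ± 0.71, adjusted p = 0.0238), although the call against day 7 was lost without any 1 day-7 library (0.0593 to 0.0789) and without day-28 replicate 2 or 3 (0.0523 and 0.0804). Tnf, tumour necrosis factor, rose at day 28 (3.89 ± 1.11, adjusted p = 0.0317), with 1.37, 1.70 and 1.35 CPM at day 28 and 0.0348, 0.182 and 0.0715 CPM in control, but leaving out any 1 library of these groups ended the call (0.0508 to 0.117). Tnf, Il1a and Il17a are counted among the 12 genes higher at day 28. They passed the filter on low counts only through that day, where they were high, so their levels are the description to go by.

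The summed level of the 18 genes was 499 to 551 CPM in control, 594 to 818 CPM at day 7, 600 to 1177 CPM at day 14 and 1013 to 1608 CPM at day 28. It was highest at day 14 in replicate 3, as the chemokines were. Among 8 immediate early genes, which rise quickly when tissue is handled or stimulated, 1 was called higher at day 7 and 0 were called at days 14 and 28. With 15.6% of all tested genes called higher at day 7, nothing is read from this count. The 8 immediate early genes summed to 451, 553 and 1181 CPM in day-7 replicates 1, 2 and 3, against 327 to 460 CPM in control. The day-7 library with the highest sum was also the highest day-7 library for Cxcl1, Cxcl2, Cxcl3, Cxcl6, Ccl2, Ccl7 and Csf3. It was the lowest for Ccl3 and not the highest for Ccl4, and Ccl20 was at 0 in all of day 7. Haemoglobin made up 2.90% of the counts of that library. The part of tissue handling in those values was not tested.

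Of 26 other chemokine and colony-stimulating factor genes, 22 were tested. Against control, 3 rose at day 7, 2 rose and 1 fell at day 14, and 13 rose and 2 fell at day 28, with a median log2 fold change of 1.15, 0.85 and 2.13. Among all tested genes, 15.6%, 1.45% and 11% were called higher and 10.5%, 0.995% and 7.51% lower at these days. The day-7 count is near that share, so nothing is read from it. Csf2 and Cxcl11, counted among the 13, passed the filter on low counts only through day 28, where they were high. The 3 day-7 rises were Pf4, the platelet factor also made by macrophages (1.50 ± 0.37, adjusted p = 0.0118), Ccl12, a further rodent monocyte attractant (3.40 ± 0.90, adjusted p = 0.0171), and Cxcl9, an interferon-induced attractant of T cells (2.90 ± 0.91, adjusted p = 0.0362). The call of Pf4 was lost without control replicate 2 (0.0530), that of Ccl12 without control replicate 2, control replicate 3 or day-7 replicate 3 (0.0590 to 0.0655), and that of Cxcl9 without any 1 library of either group (0.0551 to 0.120). Ccl11, an attractant of eosinophils, was lower by 2.44 ± 0.85 at day 7 without being called (adjusted p = 0.0531, but 0.0331 with no filter and 0.00272 with only these groups fitted). It measured 3.70, 9.63 and 8.0 CPM at day 7 and 23.5, 45.3 and 47.2 CPM in control, so the groups did not overlap. At day 28, Ccl12 (4.25 ± 0.89, adjusted p = 0.00734), Pf4 (1.31 ± 0.37, adjusted p = 0.0283) and Cxcl9 (4.13 ± 0.93, adjusted p = 0.0108) were also higher than in control. The day-28 call of Pf4 was lost without any 1 control library (0.0616 to 0.106) and without day-28 replicate 1 or 2 (0.0966 and 0.0747).

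Markers of the cells that these ligands attract were examined beside them. Of 12 neutrophil markers, 8 were tested, and 4 rose at day 7, 2 at day 14 and 3 at day 28. Among all tested genes, 15.6%, 1.45% and 11% were called higher at these days. Ncf1, an oxidase subunit that macrophages also make, and Csf3r rose at all 3 days. Retnlg and Mpo also rose at day 7 and Mmp8 at day 28, with Mpo passing the filter on low counts only through day 7. S100a8 and S100a9 were not called at any day. The 12 neutrophil markers summed to 7.45 to 7.97 CPM in control, 49.4 to 72.8 CPM at day 7, 18.1 to 225 CPM at day 14 and 91.2 to 142 CPM at day 28. Within these sums Ncf1 alone held 4.59 to 4.70 CPM in control and 17.0 to 26.5 CPM at day 7. It held 58.0 to 69.1 CPM at day 28, so much of the day-28 sum rests on a gene not particular to neutrophils. The granule genes Ngp, Camp, Ltf and Elane were below the filter, and Ltf was at 0 in 11 of 12 libraries. All 16 monocyte and macrophage markers rose at day 7 and at day 28 and 6 at day 14. They summed to 614 to 720 CPM in control, 2155 to 3018 CPM at day 7, 1029 to 2072 CPM at day 14 and 1875 to 2889 CPM at day 28. The part of cell numbers in the chemokine results was not tested.

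**Figure D5:**
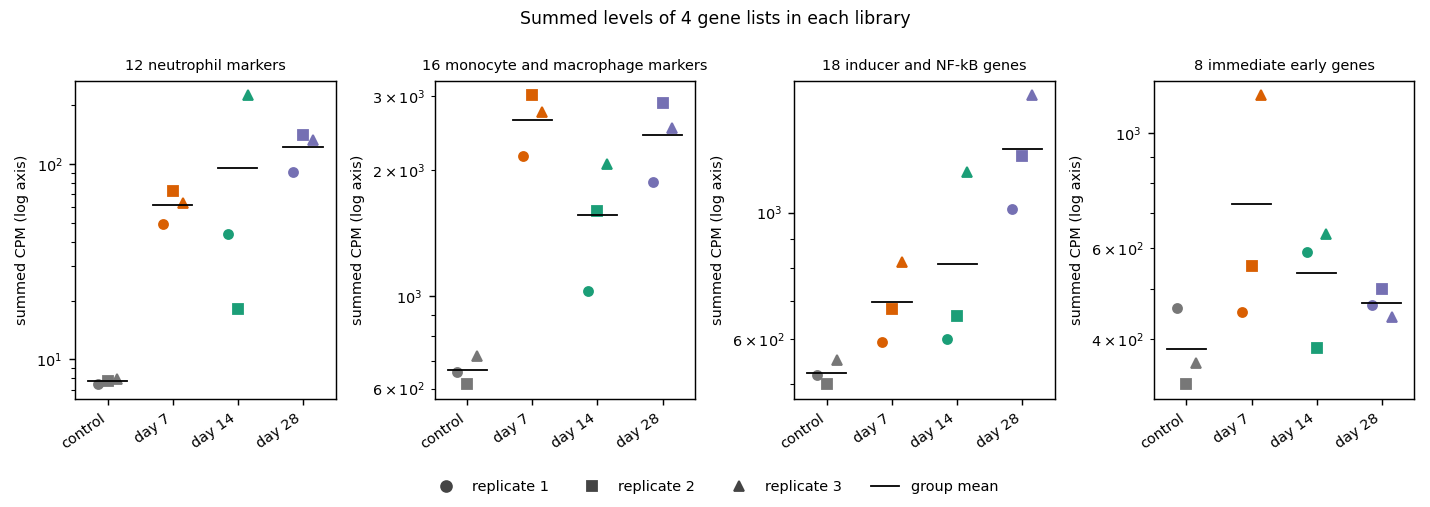
Summed CPM (log axis) of neutrophil markers, monocyte and macrophage markers, inducer and NF-kappaB genes, and immediate early genes in each library; bars are group means and symbols the replicate numbers. Day-14 replicate 3 has the highest neutrophil sum of all, 225 CPM, and day-7 replicate 3 the highest immediate early sum, 1181 CPM.

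Of 8 urothelial markers none rose against control, and 4 fell at day 7, 1 at day 14 and 4 at day 28, where 10.5%, 0.995% and 7.51% of all tested genes were called lower. Endothelial markers rose in 4 of 4 cases at day 7 and at day 28 and in 0 at day 14, summing to 451 to 514 CPM at day 7, 216 to 347 CPM at day 28 and 120 to 136 CPM in control. Of 5 smooth muscle markers, 3 rose at day 7 and 1 fell at day 28, and every day-28 sum lay below every control sum. Among 5 fibroblast markers, 1 rose at day 7, and 1 fell at day 14 and 3 at day 28. The share of all tested genes called higher was 15.6% at day 7, 1.45% at day 14 and 11% at day 28.

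Genes whose profiles were most like those of the leading CXC and CC genes were sought among 13017 genes, by the root mean square difference of centred log2(CPM + 0.5) over the 12 libraries. For Cxcl6, the CXC gene with the highest mean CPM, these were Mmp7 (0.736), Gpx2 (0.903), Ms4a12 (0.991), MGC105649 (1.00) and Il1b (1.02), against a standard deviation of 2.40 for Cxcl6 itself. Mmp7, which encodes an epithelial matrix protease, averaged 0.228 CPM in control, 3.82 CPM at day 7, 3.82 CPM at day 14 and 59.3 CPM at day 28. For Ccl2 they were Clec4d (0.475), Lyz2 (0.482), Trem1 (0.489), Mcemp1 (0.532) and Sirpb2l1 (0.541), against a standard deviation of 1.42. Lyz2, which encodes the lysozyme of macrophages and neutrophils, averaged 113 CPM in control, 903 CPM at day 7, 586 CPM at day 14 and 711 CPM at day 28. These are descriptions over libraries that share 4 groups.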

How the data were processed

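Total RNA of rat bladder tissue was freed of ribosomal RNA (RiboMinus), and 12 TruSeq libraries were sequenced as single 50-base Illumina reads, per the labels' protocols. Tools named, without their roles, in the submitters' processing notes are HISAT2 2.1.0, HTSeq 0.11.2 and bcl2fastq, and the build is rn6. The authors deposited raw read counts per gene and per mRNA transcript, per the file headers. TPM per gene are the authors' own deposited values, per the file headers. Groups came from the sample titles.

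Counts were filtered by filterByExpr (at least 10 per library at the group size, total of at least 15), scaled by TMM and fitted in 1 quasi-likelihood model over all 12 libraries with edgeR 4.0.16 in R 4.3.3. Benjamini-Hochberg adjustment was made over all tested genes of a comparison. Standard errors are approximate, the absolute log2 fold change over the root of the F statistic. Intervals for low counts are exact at 95% and, like the floor of 3 counts, cover counting error only. Alternatives were DESeq2 1.42.0, RLE factors, no filter, only the groups compared, a replicate block, and leaving out each library in turn. Scripts were tested on simulated data. Replicate libraries of a group differed by more than sampling noise. Tables were read by the R package data.table, version 1.17.8, and plots drawn with Python 3.11.15 and matplotlib 3.10.9.

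All 10 genes and the receptors are named, except that 1 gene fixed in the receptor list is not reported here. Of the inducer and other chemokine lists, up to 4 genes with the smallest day-7 p are named, plus Tnf, Il1b and Il6. Other genes named were chosen after their values were seen. The genes and lists were chosen with earlier results of these data known. Ccr2 and Trac were not analysed here. Promoters are from RefSeq on GRCr8, matched by symbol, and only names and sequences were taken from that build.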

Additional observations from a re-analysis of the deposited data

Results flagged for a closer look

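Ccl20 and Csf3 changed by different amounts against the shared control at day 28 and at day 7, by the test of the difference itself. The fitted log2 difference of day 28 from day 7 was 9.52 for Ccl20 (edgeR adjusted p = 0.0107) and 4.26 for Csf3 (adjusted p = 0.00783). All 3 day-28 libraries lay above all 3 day-7 libraries for both genes. Ccl20 had 297 counts at day 28 and 0 at day 7, so its fitted value depends on the prior count, and the bound is at least 90.9-fold. Both genes passed the filter on low counts only through day 28, the group in which they were high, so these p-values are no independent support for the difference.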

How the results depend on the processing

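Low counts set most of the limits: Cxcl2, Cxcl3, Cxcl6, Csf3 and Ccl20 had 10 or fewer counts over the 3 control libraries, and their folds are uncertain. The share of the 10 genes called was the least stable figure. Of the members, DESeq2 called 5 at day 7, 5 at day 14 and 4 at day 28 against day 7, where edgeR called 3, 0 and 2. With no filter, 2 members were called at day 14 and 4 at day 28 against day 7. With only the groups compared, 5 members were called at day 7 and 5 at day 28 against day 7. Leaving out 1 library gave 1 to 3 members called at day 7, 0 to 3 at day 14, 3 to 9 at day 28, 0 to 3 at day 14 against day 7, 2 to 3 at day 28 against day 7 and 0 to 5 at day 28 against day 14. At day 28, 3 members were called without any 1 control library and 4 without day-28 replicate 3.

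Over all genes, DESeq2 called 1360 at day 14 (edgeR 433) and 1647 at day 28 against day 14 (edgeR 768), and fitting only the groups compared called 2195 at day 14 against day 7 (3457 with all groups) and 42 at day 28 against day 14. Leaving out 1 library gave 3061 to 4888 at day 7, 16 to 504 at day 14, 1971 to 3283 at day 28, 1959 to 3431 at day 14 against day 7, 1954 to 3275 at day 28 against day 7 and 261 to 1120 at day 28 against day 14.

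Same-numbered libraries correlated at -0.0419 to 0.190, over 0.1 in 6 of 18 cases. Libraries of different number were not compared in this way, so it is not settled if replicate numbers pair the libraries. With the replicate block, 1 of the members was called at day 14, 2 at day 14 against day 7, 3 at day 28 against day 14 and 5 at day 28 against day 7, and Cxcl2 turned to -0.18 at day 14 against day 7.

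The sign turned on leaving out 1 library for values that were not called. Against control these ranged from -0.58 to 0.70 for Csf3, -0.81 to 1.78 for Tnf, -0.88 to 0.54 for Il1a and -0.16 to 0.18 for Zc3h12a at day 7, from -1.32 to 3.82 for Cxcl2 and -0.79 to 5.37 for Cxcl6 at day 14, and from -0.18 to 0.89 for Ccr1 at day 28. For day 14 against day 7 they were -2.01 to 0.11 for Ccl2, -0.37 to 1.34 for Ccl3, -0.32 to 1.68 for Ccl4, -1.33 to 1.32 for Cxcl1, -3.86 to 1.28 for Cxcl2, -2.27 to 3.49 for Cxcl3 and -6.22 to 0.47 for Cxcl6. For day 28 against day 14 they were -0.94 to 1.12 for Ccl2, -0.55 to 1.70 for Ccl4 and -1.14 to 0.92 for Ccl7. The cause was not tested. Of 660 member values, 13 could not be had, since the gene fell below the filter when only the groups compared were fitted or both groups were at 0. No scaling moved the median over all genes by more than 0.1.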

Other observations

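Some genes of the inducer list were singled out after their values were seen. Il1a, interleukin-1 alpha, was measured at 35.6, 21.7 and 102 CPM at day 28 and at 0.139, 0.292 and 0.0715 CPM in control (8.28 ± 1.58, edgeR adjusted p = 0.00458). Il17a, the interleukin-17 ligand gene, had 11, 111 and 55 counts at day 28 and 0 in each control library (adjusted p = 0.00766), and 1 count in all at day 7 and 0 at day 14. Zc3h12a, whose product degrades cytokine mRNA, was measured at 193, 253 and 375 CPM at day 28 and at 19.4, 22.3 and 21.1 CPM in control (3.71 ± 0.37, adjusted p = 0.000141). Nfkbiz, an NF-kappaB cofactor induced by interleukin-1 and interleukin-17, was measured at 71.9, 78.4 and 112 CPM at day 28 and at 14.8, 10.6 and 10.4 CPM in control (2.87 ± 0.37, adjusted p = 0.000509). These 4 calls held in the 11 alternative fits each. Il1a and Il17a passed the filter on low counts only through day 28, where they were high, so their p-values are no independent support.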
